A study of Mus musculus with 12 samples.

Results

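This comparison set murine bone marrow–derived macrophages (BMDMs) in floating type I collagen gels against BMDMs on tissue culture (TC) plates, with IL-4 given in both formats. It held 6 of the 12 libraries of the series, 4 from gels and 2 from plates, and its members were picked from the culture format and treatment in the sample labels. Wild-type C57BL/6J marrow had been grown into BMDMs in medium with L929-conditioned medium, a source of the macrophage growth factor CSF1. Cells were embedded in rat tail collagen I at 2 mg/ml (low collagen) or 7 mg/ml (high collagen) and cut loose from the well wall so that the gels floated, or they were kept on stiff TC plastic, and IL-4 was present at 20 ng/ml for 24 h by the labels. The remaining 6 libraries came from the same 3 formats without IL-4, and they served to ask whether the gel response was the same without the cytokine. The labels give no age or sex for the marrow donors and do not say whether the 2 libraries of a condition came from separate cultures or mice, so p-values measure only the spread between these libraries, which may be technical. Gels and plates also differed in dimensionality, collagen, vessel and handling at RNA harvest, and these cannot be told apart here.

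IL-4 binds its receptor on macrophages, activates the transcription factor STAT6 and induces the alternative activation genes that are used in tissue repair, among them Arg1, Retnla and Chil3. Macrophages read the stiffness and shape of their surroundings through the actin cytoskeleton, and their shape differs between stiff plastic and a soft matrix that surrounds them. Oxygen supply, nutrient use and CSF1-driven proliferation can also differ between a layer of cells and a gel.

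Values were TPM, the share of transcripts in a library after allowing for their length, and differences were taken on log2(TPM + 1). Of 11752 genes with a mean of at least 1 TPM over the 6 libraries, 2487 (21.2%) were higher in gels and 5418 (46.1%) were lower at a Benjamini-Hochberg adjusted p under 0.05 in limma. The median gene lay at -0.25 on the log2 scale. After median-ratio rescaling, which sets the median gene to be alike in each library, 3823 genes were higher and 3742 were lower, and the median moved to 0.01. Among genes with a mean of at least 5 TPM the median shift was 0.28. The 10 most abundant genes took 11.8% of the TPM on plates and 13.8% to 14.8% in gels. Because the split depended on the scaling, the strict count below asked for at least a 2-fold change and an adjusted p under 0.05 on both scalings. It gave 784 genes higher in gels (6.67%) and 913 lower (7.77%), of which 725 and 875 were protein coding. Of these 1697 genes, 1695 moved in the same direction in low- and in high-collagen gels. This was largely set by the choice, since genes were picked on the mean of both gels and both share the plate libraries.

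**Figure D1:**
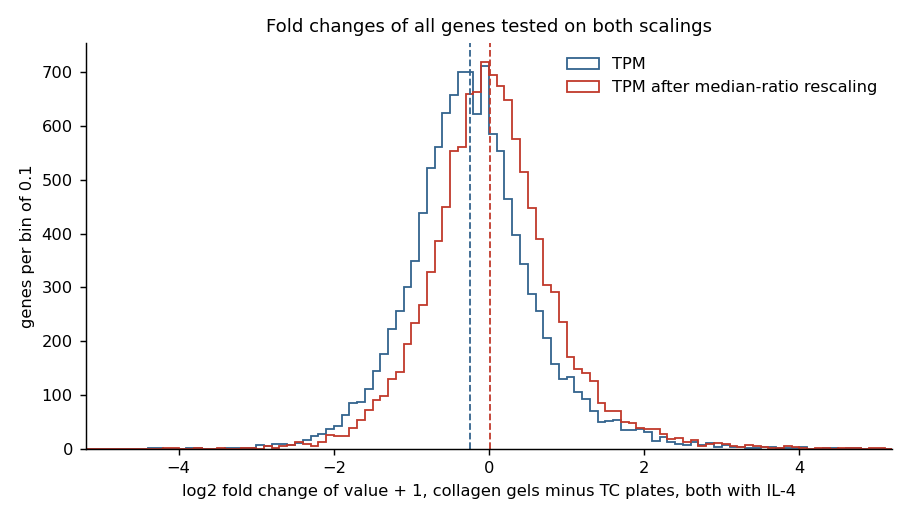
Distribution of log2 fold changes of value + 1 (x axis) of the 11752 genes, gels minus plates with IL-4, as genes per bin of 0.1 (y axis), on TPM (blue) and after median-ratio rescaling (red). Dashed lines mark the medians of -0.25 and 0.01, so the curves have a like shape and differ by a sideways shift.

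Replicates correlated at r = 0.981 to 0.985 across genes, and each IL-4 library held 11543 to 11824 genes at 1 TPM or more. All 12 markers of macrophages, the labeled cell type, passed the filter, and their summed level was 20921 to 21156 TPM on plates and 36828 to 44276 TPM in gels. Lyz2, which encodes lysozyme, made up most of that sum. The macrophage marker Csf1r, the receptor for CSF1, was at 549 and 530 TPM on plates, 1114 and 1091 TPM in low-collagen gels and 1445 and 1316 TPM in high-collagen gels. Markers of other lineages were low. All 9 dendritic cell markers stayed below 1 TPM in each of the 6 libraries, and 7 of 10 mast cell and basophil markers were listed at 0 throughout. Of 7 B cell markers, 5 stayed below 1 TPM in each of the 6 libraries. Their summed level was nonetheless 4.44 to 5.44 TPM on plates and 41.7 to 46.2 TPM in gels, through Ighm, the immunoglobulin mu heavy chain, at 3.30 to 4.20 TPM on plates and 37.0 to 41.6 TPM in gels. The summed neutrophil markers were 6.32 to 11.4 TPM on plates and 16.0 to 25 TPM in gels, those of T and NK cells 2.50 to 3.21 and 4.40 to 9.78 TPM. The T and NK cell sum rose mainly through Cd4, at 2.29 and 0.66 TPM on plates and 3.04 to 7.70 TPM in gels. Cd3e, Cd3d, Cd3g and Trac stayed below 1 TPM in each of the 6 libraries. Fibroblast markers summed to 1.45 to 1.73 TPM on plates and 5.32 to 9.54 TPM in gels, mainly through Postn, while the collagen genes Col1a1 and Col3a1 stayed near 0. Of 7 monocyte markers, 4 were tested and all 4 were higher in gels, of which Chil3 overlapped between plates and high-collagen gels. The largest rise among them was that of F13a1, coagulation factor XIII subunit A, at 22.4 and 27.1 TPM on plates and 266 to 343 TPM in gels. The other 3, Ly6c2, Plac8 and Vcan, stayed below 1 TPM in each of the 6 libraries. Vcan went the other way, at 0.73 and 0.59 TPM on plates and 0.07 to 0.43 TPM in gels. The part of such cells in the results below was not tested, and in bulk RNA fewer cells of a type and less RNA per cell cannot be told apart.

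The alternative activation genes rose in gels for the most part. Of 32 tested members of the list, 19 were higher in gels and 7 lower, and 13 were higher and 2 lower by the strict count, with a list median of 0.80 on TPM and 1.02 after rescaling. Retnla, which encodes the secreted protein RELMα/FIZZ1, had the largest rise of any protein-coding gene with a mean of at least 5 TPM. It lies at chr16:48842551-48844461 (GRCm38, plus strand). Retnla was at 126 and 110 TPM on plates, 7612 and 9073 TPM in low-collagen gels and 1472 and 1152 TPM in high-collagen gels. All 4 gel libraries thus lay above both plate libraries, and the 2 low-collagen libraries lay above the rest. The difference of gels from plates was 4.79 ± 0.41 (log2, SE; adjusted p = 5.0e-06). The 250 bases upstream of its RefSeq start (chr16:48842359-48842608, plus strand) are shown because Retnla is the textbook STAT6 target. Capitals mark its 1 match to a STAT6-type element, whose first base lies 145 bases upstream of the start.
Retnla: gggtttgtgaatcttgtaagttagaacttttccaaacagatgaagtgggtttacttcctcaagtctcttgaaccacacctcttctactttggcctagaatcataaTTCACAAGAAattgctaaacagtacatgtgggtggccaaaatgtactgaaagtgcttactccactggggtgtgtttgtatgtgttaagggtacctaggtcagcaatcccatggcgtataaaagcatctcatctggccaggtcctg
Elements of this type, searched on both strands, occurred in 5.47% of the 300-base promoter windows of tested genes, in 6.95% of all promoter windows and in 15.8% (3 of 19) of those of list members higher in gels.

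Other IL-4 genes followed with smaller differences. Il4i1, a secreted amino acid oxidase that lies outside the list, stood at 2.63 and 3.52 TPM on plates and at 69.9 to 96.0 TPM in gels (4.39 ± 0.26, adjusted p = 4.9e-07). Rnase2a, a ribonuclease of the eosinophil-associated family, was at 148 and 120 TPM on plates, 929 and 962 TPM in low-collagen gels and 468 and 437 TPM in high-collagen gels (2.29 ± 0.21, adjusted p = 7.3e-06). Its relative Ear2 went from 1.12 and 1.85 TPM on plates to 22.3 and 31.6 TPM in low-collagen and 5.5 and 5.18 TPM in high-collagen gels (2.43 ± 0.21), although 60.5% of the 31-base words of its transcripts occur in other genes, so its level depends on how reads were divided. Arg1, the arginase of alternative activation, was already at 3114 and 3069 TPM on plates and reached 6307 to 7958 TPM in gels, a rise of 1.22 ± 0.31 (adjusted p = 6.2e-03). Cish and Socs1, which encode inhibitors of cytokine signaling, rose by 2.20 ± 0.22 and 1.39 ± 0.12. Fn1, fibronectin, rose by 1.33 ± 0.10 (178 and 186 TPM on plates, 358 to 607 TPM in gels).

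Not all IL-4 genes followed. Mrc1, the mannose receptor CD206, was at 1349 and 1380 TPM on plates and 766 to 923 TPM in gels, so it fell by 0.73 on the log2 scale (SE 0.08, adjusted p = 2.5e-05). Pparg, a lipid-sensing nuclear receptor, was lower as well (-1.09 ± 0.15), and so were Tgm2 (-0.94) and Myc (-1.17). Stat6 itself (-0.12) and Mgl2 (-0.29) did not pass the test. Mmp12, macrophage elastase, had the largest fall of the list, from 1629 and 1734 TPM on plates to 189 to 251 TPM in gels (-2.95 ± 0.07, adjusted p = 4.6e-09).

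The gels of both densities differed from each other within this list. With IL-4, 14 of the 32 members were lower in high- than in low-collagen gels and 0 were higher, beside 923 genes (7.85%) called in either direction among all tested. The list was written with earlier results of these data known. It holds Retnla, Rnase2a, Ear2, Chil3, Fn1 and Ccl24, which the study named as higher in low-collagen gels. The count is therefore not independent of that choice. Over all genes 592 were higher and 331 lower in high-collagen gels on TPM, and 436 were higher and 541 lower after rescaling. For 2 of these genes the place of the plates depended on the gel. Chil3, the chitinase-like protein Ym1, was at 565 and 632 TPM on plates, 1855 and 1817 TPM in low-collagen gels and 574 and 531 TPM in high-collagen gels, so the plates overlapped the high-collagen gels (41.5% of its words are shared with other genes). Ccl24, the chemokine eotaxin-2, was at 11.9 and 8.46 TPM on plates, 76.0 and 73.6 TPM in low-collagen gels and 3.44 and 5.92 TPM in high-collagen gels, with the plates between both gels. The mean differences of gels from plates, 0.75 ± 0.24 for Chil3 and 0.89 ± 0.31 for Ccl24, therefore describe neither gel. Both lost their adjusted p under 0.05 when the 4 gel libraries were fitted as 1 group, at a pseudocount of 0.1 and with no filter. Chil3 lost it also without the first or the second plate library (0.67 and 0.83), and Ccl24 without the second plate library, the second high-collagen library or either low-collagen library (0.67 to 0.905).

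**Figure D2:**
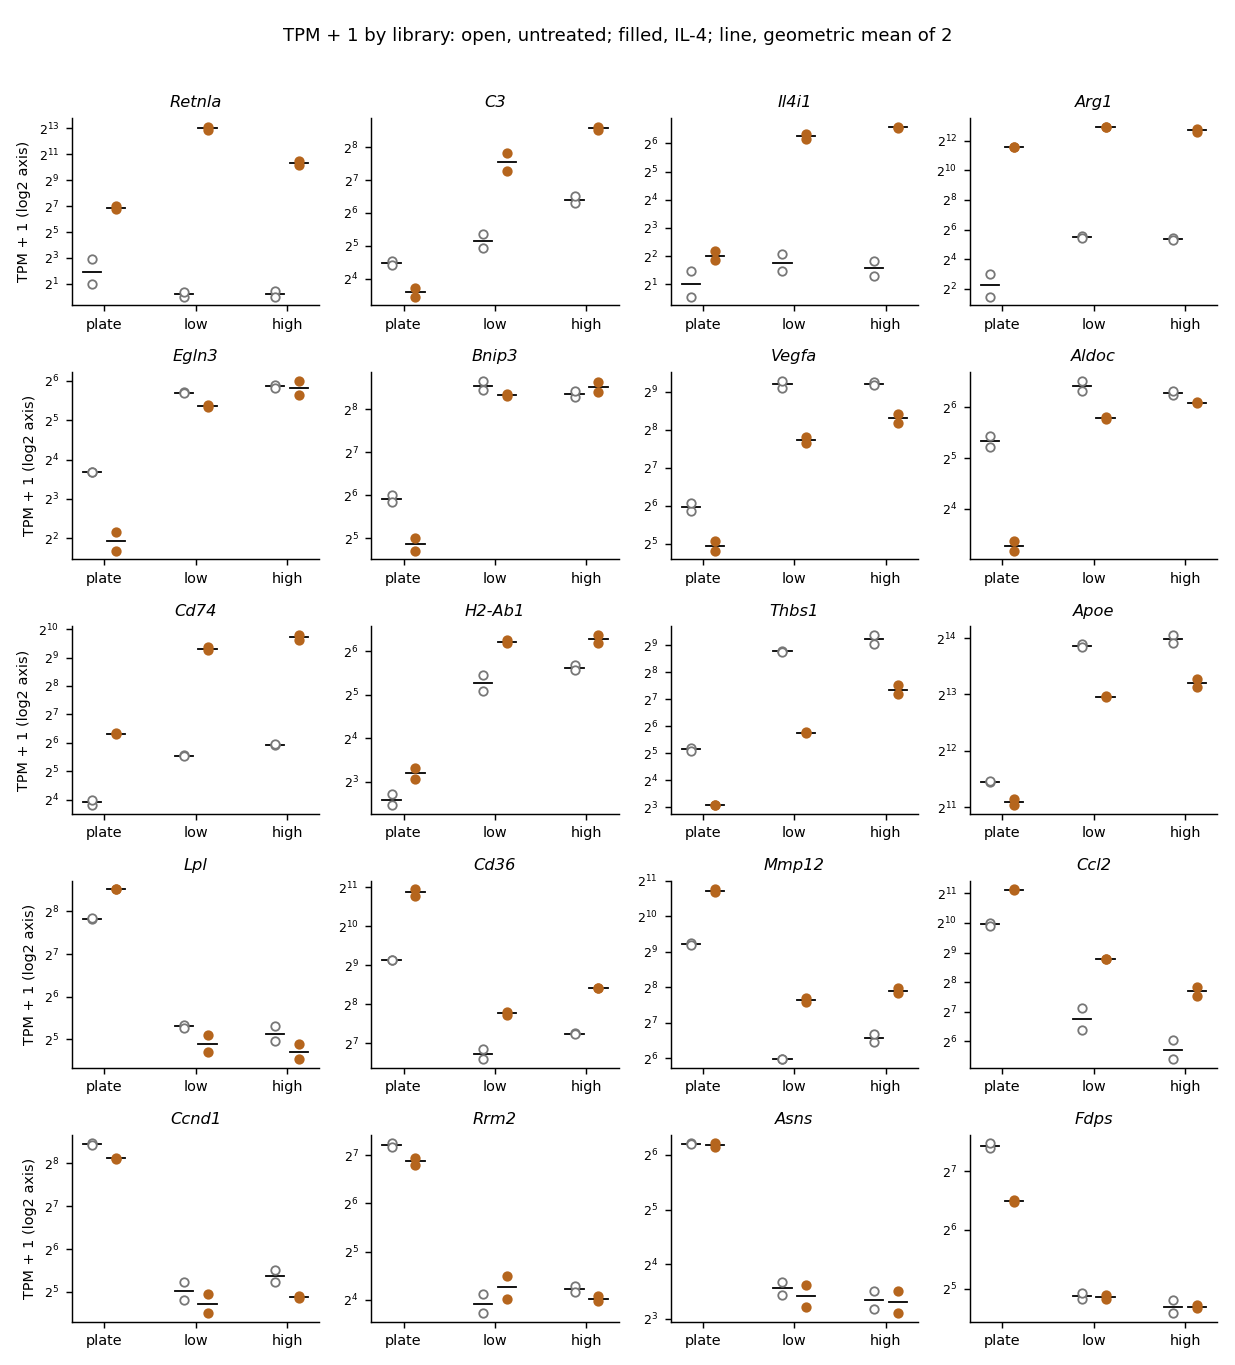
TPM + 1 (y axis, log2 scale) of 20 genes in the 12 libraries, by culture format (x axis: TC plate, low- and high-collagen gel). Open points are untreated libraries, filled points IL-4 libraries and lines the geometric mean of 2; with IL-4 the gel points of Egln3, Bnip3 and Cd74 lie above the plate points, and those of Lpl, Ccnd1 and Asns below.

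Genes of the hypoxia response were higher in gels. This response runs through HIF transcription factors, which are stable when oxygen-dependent prolyl hydroxylation is low. Of the 25 members, all of which passed the filter, 20 were higher and 2 lower, 15 and 1 by the strict count, and the list median was 1.03 on TPM and 1.31 after rescaling. Egln3, a prolyl hydroxylase that marks HIF for degradation and is itself a HIF target, was at 2.20 and 3.48 TPM on plates, 39.1 and 40.6 TPM in low-collagen gels and 63.2 and 48.7 TPM in high-collagen gels (3.67 ± 0.14, adjusted p = 3.4e-08). Bnip3, a mitophagy receptor, was at 25.1 and 31.1 TPM on plates and 318 to 395 TPM in gels (3.57 ± 0.10). Vegfa, the angiogenic growth factor, was at 27.2 and 32.9 TPM on plates, 222 and 199 TPM in low-collagen gels and 289 and 340 TPM in high-collagen gels (3.06 ± 0.10). Gels and plates did not overlap for any of these. Ndrg1 (3.05), Ankrd37 (2.72) and Ero1l (2.23) rose likewise. The exceptions were Tfrc, the transferrin receptor (-1.31), and Car9, carbonic anhydrase 9 (-0.63), which were lower, while Slc2a3 (-0.17) and Bhlhe40 (-0.19) did not pass the test.

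The core of the hypoxia response element, ACGTG, was searched on both strands of the promoter windows, and a palindromic match counts on each strand. It occurred in 58.3% (14 of 24) of the windows of members higher in gels (13 of 17 genes matched), in 25.7% of the windows of tested genes and in 19.6% of all windows. The upstream 250 bases of Egln3 (chr12:54203875-54204124, minus strand) and Bnip3 (chr7:138909507-138909756, minus strand) are given to show where these letters fall, in capitals, at 229 bases upstream of the start in Egln3 and in the overlapping pair at 108 and 107 bases in Bnip3.
Egln3: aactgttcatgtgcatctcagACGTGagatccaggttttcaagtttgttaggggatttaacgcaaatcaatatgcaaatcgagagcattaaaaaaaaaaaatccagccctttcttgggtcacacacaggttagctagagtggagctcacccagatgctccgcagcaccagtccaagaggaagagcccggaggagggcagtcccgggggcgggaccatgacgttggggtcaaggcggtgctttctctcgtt
Bnip3: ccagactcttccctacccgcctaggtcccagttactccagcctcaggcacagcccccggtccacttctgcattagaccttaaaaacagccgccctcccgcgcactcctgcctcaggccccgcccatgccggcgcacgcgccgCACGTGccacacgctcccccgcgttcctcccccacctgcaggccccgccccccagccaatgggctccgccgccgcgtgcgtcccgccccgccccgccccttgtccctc
A match describes the letters in the window and not a bound site.

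Glycolysis genes rose beside it. Of 21 genes, 16 were higher and 4 lower, 7 and 0 by the strict count, with a median of 0.46 on TPM and 0.75 after rescaling. Aldoc, an aldolase, was at 8.00 and 9.32 TPM on plates and 53.8 to 67.4 TPM in gels (2.67 ± 0.09). Slc16a3, the lactate exporter MCT4, was at 53.6 and 46.4 TPM on plates and 179 to 250 TPM in gels (2.03 ± 0.08), and Gpi1 (1.55) and Pfkl (1.34) rose too. Hk1, Hk3, Pfkp and Pfkfb3 were the 4 lower members, at -0.20 to -0.57 on TPM, beside a median of -0.25 for all genes. Subunits of the respiratory chain moved less. Of 50 nuclear-encoded subunits, 9 were higher and 27 lower with a median of -0.20 on TPM and 0.09 after rescaling, so that the sign of the median turned with the scaling. Of 13 mitochondrially encoded genes, 10 were lower and 0 higher (median -0.69 and -0.40).

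Antigen presentation genes of MHC class II were higher in gels. This machinery loads peptides onto class II molecules with the help of the invariant chain. Of 16 tested genes, 13 were higher and 2 lower, 12 and 1 by the strict count, and the list median of 1.91 on TPM (2.13 after rescaling) was the highest of the 31 program lists. Cd74, the invariant chain, was at 80.3 and 77.6 TPM on plates, 654 and 607 TPM in low-collagen gels and 888 and 790 TPM in high-collagen gels (3.19 ± 0.07, adjusted p = 3.5e-09). The class II beta chain H2-Ab1 was at 7.43 and 9.01 TPM on plates and 71.2 to 81.7 TPM in gels (3.04 ± 0.12), and the alpha chain H2-Aa rose by 2.09. The costimulatory ligand Cd86 rose by 2.48 ± 0.17, whereas Cd80, its relative, fell by 0.65 on the log2 scale. Since B cells also express class II genes, the Ighm levels given above stand beside this list, as does the level of the dendritic cell markers, which stayed below 1 TPM.

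Interferon-stimulated genes were higher in part. Of 32 tested, 17 were higher and 0 lower, 9 and 0 by the strict count, with a median of 0.74 on TPM and 1.01 after rescaling. Gbp2, an interferon-inducible GTPase, was at 2.54 and 3.69 TPM on plates, 61.3 and 29.9 TPM in low-collagen gels and 20.3 and 17.9 TPM in high-collagen gels (2.87 ± 0.25, adjusted p = 5.5e-06). Irf7, the transcription factor that amplifies interferon production, was at 7.56 and 5.63 TPM on plates, 53.2 and 23.1 TPM in low-collagen gels and 21 and 16.5 TPM in high-collagen gels (1.82 ± 0.35). The first low-collagen library had the highest value for both genes, and without it the list median was 0.47, Gbp2 differed by 2.61 and Irf7 by 1.53, the latter still called. Ifit1, at 0.854 to 1.04 TPM on plates and 1.24 to 8.93 TPM in gels, did not pass the test (1.16 ± 0.52, adjusted p = 0.074).

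Complement and phagocytosis genes were mixed but led by one of the largest rises in the data. Of 30 tested genes, 19 were higher and 6 lower, 5 and 2 by the strict count (median 0.52 on TPM, 0.80 after rescaling). C3, the central complement component, was at 9.91 and 12.1 TPM on plates, 228 and 156 TPM in low-collagen gels and 396 and 366 TPM in high-collagen gels (4.49 ± 0.16, adjusted p = 3.0e-08). The endosomal DNA sensor Tlr9 rose by 2.79 ± 0.11, from 1.02 to 1.27 TPM on plates to 11.8 to 15.9 TPM in gels. C5ar1, the receptor for complement C5a, fell by 2.22 on the log2 scale, from 217 to 236 TPM on plates to 39.4 to 59.6 TPM in gels. The C1q genes C1qa, C1qb and C1qc rose by 0.89 to 0.96.

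Chemokine genes moved in both directions. Of 24 tested genes, 13 were higher and 7 lower, and 7 were higher and 7 lower by the strict count (median 0.32 on TPM, 0.57 after rescaling). Ligands that attract monocytes dominated the falls. Ccl2 was at 2260 and 2184 TPM on plates, 438 and 434 TPM in low-collagen gels and 227 and 185 TPM in high-collagen gels (-2.89 ± 0.21, adjusted p = 1.5e-06), and Ccl12 (-2.71), Ccl7 (-2.45), Ccl4 (-2.30) and Ccl3 (-2.18) were lower as well. Ccl5, a chemokine for T cells and monocytes, went the other way from 1.38 and 3.18 TPM on plates to 21.6 to 72.1 TPM in gels (3.36 ± 0.47), with the first low-collagen library highest again (2.94 without it). Cxcl16 (1.99) and Ccl22 (1.89) were higher. Tnf, the inflammatory cytokine, was lower in gels at 1.64 to 2.39 TPM against 12.2 and 15.3 TPM on plates (-2.27 ± 0.17). The list of inflammatory cytokines and NF-kB targets as a whole had 11 of 27 tested members higher and 12 lower.

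Genes of fatty acid handling fell singly rather than as a list. Lpl, lipoprotein lipase, which frees fatty acids from lipoproteins, lies at chr8:68880491-68907448 and was at 367 and 365 TPM on plates and 22.2 to 33.3 TPM in gels (-3.71 ± 0.13, adjusted p = 2.8e-08). Cd36, the fatty acid and oxidized lipoprotein receptor, was at 1754 and 1982 TPM on plates, 223 and 211 TPM in low-collagen gels and 338 and 341 TPM in high-collagen gels (-2.78 ± 0.07). Fasn, fatty acid synthase, fell by 2.63 on the log2 scale. In the list of fatty acid uptake and storage, 13 of 23 tested genes were lower and 5 higher, 6 and 0 by the strict count, and the median of -0.29 on TPM (-0.01 after rescaling) was near the -0.25 of all genes. Apoe, which carries cholesterol out of macrophages, was at 2262 and 2106 TPM on plates, 7944 and 7992 TPM in low-collagen gels and 9886 and 9024 TPM in high-collagen gels (1.99 ± 0.05), and Pltp (2.33) and Apoc2 (1.80), which are LXR targets like Apoe, were higher too, although 78.8% of the words of Apoc2 are shared with other genes. The LXR list as a whole had 5 of 14 tested members higher and 4 lower, with a median of 0.00 on TPM and 0.29 after rescaling.

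Sterol synthesis and uptake genes were lower in gels. This pathway is driven by SREBP2 when cells lack cholesterol. Of 24 tested genes, 21 were lower and 1 higher, 9 and 0 by the strict count (median -0.99 on TPM, -0.71 after rescaling). Fdps, farnesyl diphosphate synthase, was at 90.7 and 88.6 TPM on plates and 24.4 to 28.7 TPM in gels (-1.73 ± 0.07). Sqle, squalene epoxidase, was at 34.2 and 33.7 TPM on plates and 9.05 to 10.7 TPM in gels (-1.71 ± 0.12). Idi1, an isoprenoid isomerase, was at 31.1 and 26.1 TPM on plates and 6.79 to 11.7 TPM in gels (-1.60 ± 0.21). SREBP2 acts together with NF-Y, which binds CCAAT. The letters CCAAT occurred in 81.2% (13 of 16) of the windows of the members lower in gels, in 38.1% of the windows of tested genes and in 37.4% of all windows. The sterol regulatory element in the form TCACNCCAC was found in 1 of these 16 windows and in 1.07% of those of tested genes.

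Cell cycle genes were lower in gels. Of 40 genes of DNA replication and mitosis, 39 were lower in gels and 0 higher, 36 and 0 by the strict count, with a median of -1.76 on TPM and -1.49 after rescaling. Ccnd1, cyclin D1, which carries growth factor signals into the cycle, was at 275 and 276 TPM on plates, 30.1 and 21.7 TPM in low-collagen gels and 28.8 and 28.2 TPM in high-collagen gels (-3.30 ± 0.14, adjusted p = 7.7e-08). Rrm2, the ribonucleotide reductase subunit of S phase, was at 110 and 122 TPM on plates and 14.8 to 21.6 TPM in gels (-2.73 ± 0.14). Ccne2 (-2.92), Uhrf1 (-2.78) and Mcm5 (-2.67) were lower to a like degree, and the proliferation marker Mki67, at 98.3 and 111 TPM on plates and 27.7 to 43.3 TPM in gels, fell by 1.51 on the log2 scale. Windows of the lower members held CCAAT in 75.8% (25 of 33) of cases. The upstream 250 bases of Idi1 (chr13:8885356-8885605, plus strand) and Rrm2 (chr12:24708004-24708253, plus strand) show where this element lies. Both genes were picked from lower members of their lists that hold it in these bases, so its presence there was set by the choice. Capitals mark CCAAT or its reverse complement ATTGG, 45 and 14 bases upstream of the start in Idi1 and 50 bases upstream in Rrm2.
Idi1: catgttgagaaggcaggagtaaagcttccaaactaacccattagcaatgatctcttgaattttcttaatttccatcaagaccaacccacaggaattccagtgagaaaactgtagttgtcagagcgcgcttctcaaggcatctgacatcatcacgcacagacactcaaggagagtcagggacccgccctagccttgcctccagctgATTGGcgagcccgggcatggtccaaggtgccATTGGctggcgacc
Rrm2: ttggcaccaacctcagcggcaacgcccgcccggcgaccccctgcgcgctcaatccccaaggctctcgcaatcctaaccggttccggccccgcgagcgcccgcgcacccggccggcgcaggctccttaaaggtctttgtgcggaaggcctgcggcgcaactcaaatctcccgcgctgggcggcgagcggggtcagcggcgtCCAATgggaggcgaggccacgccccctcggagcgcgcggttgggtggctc
In both genes the element lies within the last 50 bases before the start.

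Ribosome production and amino acid supply genes were lower in gels as well. Ribosome biogenesis, a list added after the largest falls had been seen, had 39 of 40 members lower and 0 higher, 30 and 0 by the strict count (median -1.72 on TPM, -1.46 after rescaling). Nolc1, a nucleolar chaperone, was at 50.9 and 49.1 TPM on plates and 5.86 to 9.37 TPM in gels (-2.57 ± 0.12). The ribosomal proteins themselves went the other way, with 46 of 59 higher and 4 lower, 1 and 0 by the strict count (median 0.28 on TPM, 0.56 after rescaling). The integrated stress response, in which ATF4 induces amino acid synthesis and import, had 22 of 30 tested genes lower and 5 higher, 11 and 2 by the strict count (median -1.03 on TPM, -0.75 after rescaling). The members that fell furthest were those of amino acid supply. Slc7a5, the large neutral amino acid transporter LAT1, was at 23.6 and 25 TPM on plates and 1.71 to 2.40 TPM in gels (-3.05 ± 0.28). Asns, asparagine synthetase, was at 73.2 and 69.9 TPM on plates and 7.58 to 11.3 TPM in gels (-2.82 ± 0.15, adjusted p = 3.0e-07). Slc7a1 (-2.81), Psat1 (-2.55) and Mthfd2 (-2.46) fell with them, and Atf4 itself fell by 1.18 on the log2 scale. Ddit3, the stress factor CHOP, was higher by 0.28, as were Trib3 (0.61) and Atf5 (1.13).

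The element TGATGNAA, to which ATF4 binds together with a C/EBP partner, was searched after these falls had been seen. It occurred in 21.1% (4 of 19) of the windows of the lower members, in 2.41% of those of tested genes and in 3.97% of all windows. The upstream 250 bases of Asns (chr6:7693210-7693459, minus strand) carry it in capitals, 23 bases upstream of the start.
Asns: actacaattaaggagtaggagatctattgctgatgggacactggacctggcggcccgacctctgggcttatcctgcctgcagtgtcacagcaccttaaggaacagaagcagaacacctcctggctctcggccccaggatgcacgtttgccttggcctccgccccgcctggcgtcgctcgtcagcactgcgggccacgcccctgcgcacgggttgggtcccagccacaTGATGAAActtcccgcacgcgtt
NRF2 antioxidant genes were lower in part, with 18 of 28 lower and 4 higher, 5 and 1 by the strict count. The list median was -0.53 on TPM and -0.25 after rescaling, and 46.1% of all genes were lower and 21.2% higher. Gclc (-2.13 ± 0.09) and Gclm (-1.89), the subunits of the glutathione synthesis enzyme, and Txnrd1 (-1.96), thioredoxin reductase, led the falls. In this list 10 of 28 members were higher in high- than in low-collagen gels and 0 were lower. Among all 11752 genes, 592 were higher and 331 lower in that comparison on TPM (7.85% in either direction). The antioxidant response element in the form TGACNNNGC occurred in 43.8% (7 of 16) of the windows of the lower members and in 14.4% of those of tested genes. It was not particular to this list. Windows of the lower integrated stress response members held it in 36.8% (7 of 19) of cases, and ACGTG in 42.1% (8 of 19). Heat shock genes were lower in 16 of 18 cases and higher in 2, 5 and 2 by the strict count. The list median was -1.06 on TPM and -0.78 after rescaling. Hspd1, the mitochondrial chaperonin, was at 251 and 262 TPM on plates and 53.5 to 68.2 TPM in gels (-2.07 ± 0.07, with 48.7% of its words shared with other genes). The inducible Hspa1a was 1 of the 2 that were higher (2.17 ± 0.23, with 65.4% shared).

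Most genes of the actin cytoskeleton, through which macrophages read their surroundings, were lower in gels. Of 50 tested genes of actin and adhesion, 39 were lower and 5 higher, 6 and 1 by the strict count. By that count 7.77% of all genes were lower and 6.67% higher. The list median was -0.52 on TPM and -0.24 after rescaling, so about 0.28 of the difference moved with the scaling. Actn1, alpha-actinin, was at 182 and 180 TPM on plates and 32.3 to 37.9 TPM in gels (-2.33 ± 0.08). Actb, beta-actin, was at 3995 and 3776 TPM on plates, 2017 and 2098 TPM in low-collagen gels and 1461 and 1346 TPM in high-collagen gels (-1.19 ± 0.05), so the order was plates, low and high collagen with no overlap. Flna (-1.78), filamin A, and Tln1 (-1.52), talin, which ties integrins to actin, were lower. Lsp1, a leukocyte actin-binding protein, was 1 of the 5 higher members and the 1 that passed the strict count, at 79.0 and 73.2 TPM on plates and 308 to 364 TPM in gels (2.15 ± 0.05). Targets of SRF and YAP had 13 of 19 tested genes lower and 3 higher. Of 13 tested integrin subunits, 7 were lower and 3 higher, shares close to those of all genes, and none passed the strict count (median -0.40 on TPM, -0.12 after rescaling). Itgb3 was at -1.12 ± 0.08 and Itga5 at -1.06, while Itgal was at 0.73.

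Genes of the matrix itself changed singly. Thbs1, thrombospondin 1, was at 7.49 and 7.56 TPM on plates, 53.8 and 53.1 TPM in low-collagen gels and 182 and 147 TPM in high-collagen gels (3.47 ± 0.10). Of 15 tested matrix proteins, 8 were higher and 5 lower, 4 and 0 by the strict count, and 24 further members of that list were below the filter. Plau, urokinase, was at 232 and 239 TPM on plates and 48.6 to 57.1 TPM in gels (-2.15 ± 0.08), and Mmp13, a collagenase, was lower by 1.58. Mmp14, a membrane collagenase, rose by 1.45 ± 0.12 but from a low level of 1.04 to 1.06 TPM on plates to 3.45 to 5.97 TPM in gels. Cathepsins led the lysosomal list, where 22 of 50 were higher and 18 lower, with Ctsh at 79.0 and 69.5 TPM on plates and 485 to 555 TPM in gels (2.81 ± 0.07).

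**Figure D3:**
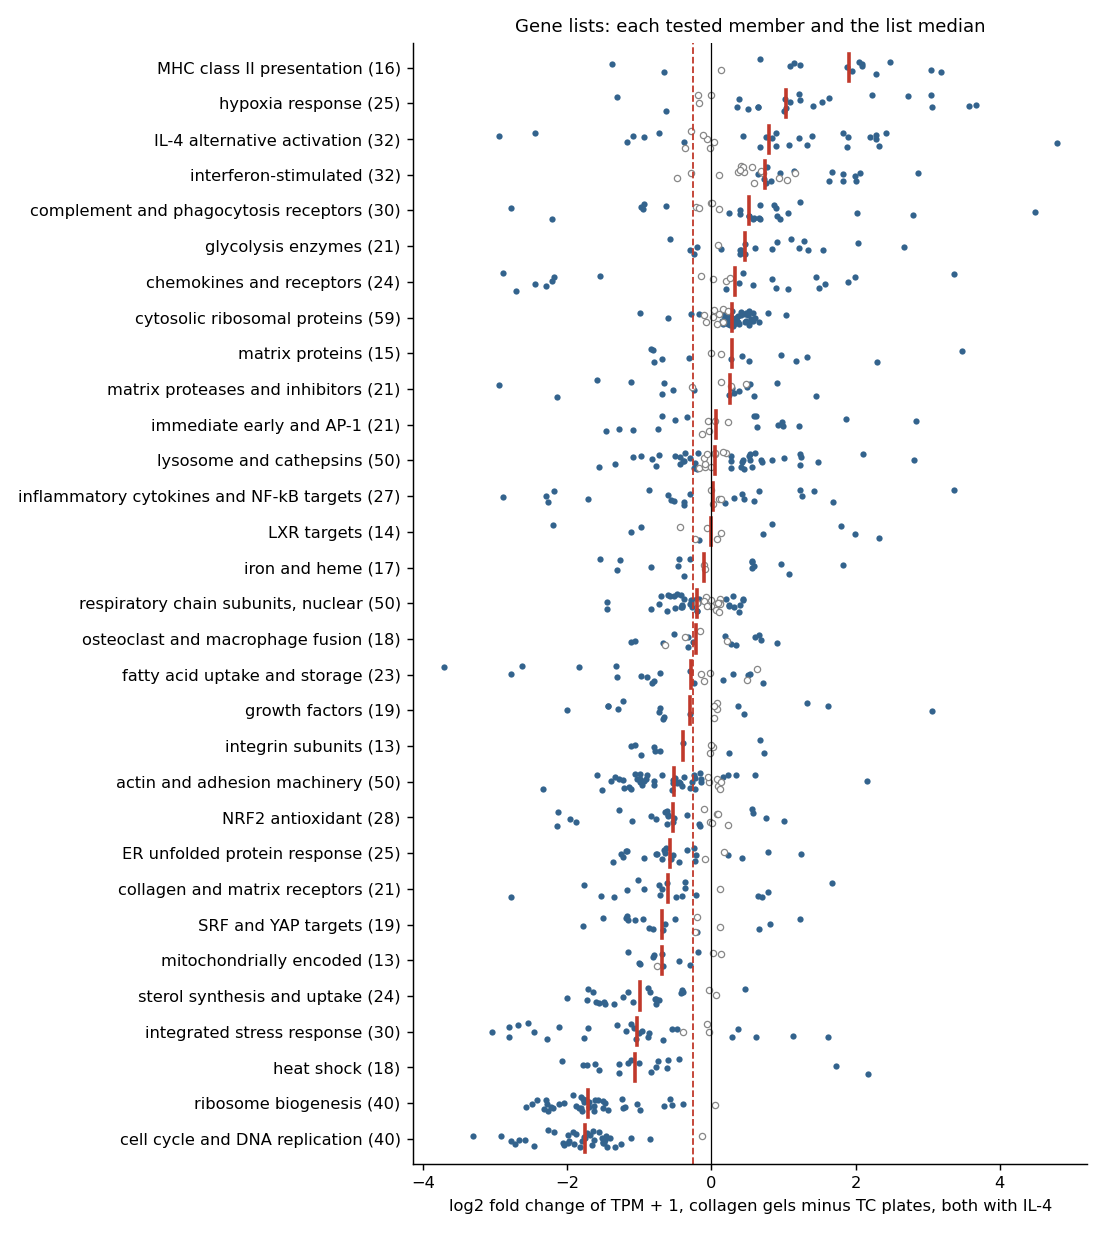
Log2 fold change of TPM + 1, gels minus plates with IL-4 (x axis), of each tested member of the 31 gene lists (rows, with the number tested). Filled points passed an adjusted p of 0.05, open points did not, red bars are list medians and the dashed line is the median of all genes at -0.25; MHC class II lies at the top at 1.91 and the cell cycle at the bottom at -1.76.

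Outside the lists, the largest rises included Klk1b11, a kallikrein-type serine protease, at 11.2 and 10.6 TPM on plates and 256 to 347 TPM in gels (4.64 ± 0.09, with 32.1% of its words shared), Arl5c (4.07), Tmem176b (4.02) and Mgarp (3.76). Mgarp, Gbp8 (4.04) and Rps27rt (3.96) were close to 0 TPM on plates, so their values depend on the pseudocount, and at 0.1 they were 5.93, 6.47 and 7.18. Of the words of Rps27rt 92.4% occur in other genes, and of those of Gbp8 31.1%. The largest falls included Nkain1 (-3.10), the serpin Serpinb9b (-3.00), the chromatin protein Hmga2 (-2.92) and Tmem158 (-2.91). Gm17631 had the largest fall by value (-4.25 ± 1.31), yet it was listed at 0 in 3 gel libraries and at 25.8 TPM in the fourth, and it lost its call without the second plate library (-3.67) and with no filter. Leaving out 1 library at a time moved it between -5.43 and -3.06, the values without the second and the first low-collagen library. AC034099.1 (-2.90) shares 94.6% of its words with other genes.

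The same contrast without IL-4 asked whether the gel effect needed the cytokine. The untreated libraries share none of the 6 libraries above. There 845 genes (7.19%) were higher in gels and 1167 (9.93%) lower by the strict count. Of the genes higher with IL-4, 528 were also higher without it, which is 67.3% of the IL-4 list and 62.5% of the untreated list, and 6 were lower. Of the genes lower with IL-4, 732 were also lower without it, 80.2% and 62.7% of the lists, and 0 were higher. Across the 11752 genes, which are not independent replicates, both effects correlated at r = 0.84. The cell cycle list had a median of -2.05 without IL-4, the sterol list -1.65, ribosome biogenesis -1.42 and hypoxia 0.84. The interferon list was at 0.08 and the alternative activation list at 0.15, beside 0.74 and 0.80 with IL-4. The interferon median with IL-4 was 0.47 without the first low-collagen library, and these medians were not tested against each other.

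The test of the difference, the gel effect with IL-4 minus that without, was higher for 594 genes (5.05%) and lower for 698 (5.94%) on TPM. After rescaling the split was 884 higher and 466 lower. Of the 1697 genes of the strict count, 330 (19.4%) differed, although the difference is built on the same IL-4 libraries. Retnla (6.52), AA467197 (3.78), Il4i1 (3.73) and Apol7c (3.45, with 38.1% of its words shared) had the largest positive differences among protein-coding genes with a mean of at least 5 TPM. The value of Retnla was 5.56 without the second and 7.49 without the first untreated plate library, and 8.47 at a pseudocount of 0.1. Il4i1, for example, was at 1.74 and 0.471 TPM on untreated plates and 1.47 to 3.17 TPM in untreated gels, so gels and plates overlapped there, unlike with IL-4. Glycolysis genes had a larger gel effect with IL-4 in 15 of 21 cases and a smaller one in 0. Slc16a3, 1 example of these 15, was at 148 and 155 TPM on untreated plates but at 53.6 and 46.4 TPM on IL-4 plates. Its gel libraries stayed between 175 and 250 TPM in both states (difference 1.71 ± 0.11, adjusted p = 3.2e-05). Whether the other members changed in the same way was not tested. Hypoxia genes had a larger effect in 11 of 25 cases, actin and adhesion genes a higher one in 15 of 50 and sterol genes a less negative one in 12 of 24. Among 32 interferon genes the difference was called higher for 3 and lower for 0. Among 32 alternative activation genes it was called higher for 9 and lower for 5.

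Some IL-4 genes were already higher in gels in the untreated libraries. Ms4a4a, a membrane protein of alternatively activated macrophages, was at 6.14 and 3.17 TPM on untreated plates and 96.8 to 219 TPM in untreated gels, against 169 and 174 TPM on IL-4 plates and 215 to 346 TPM in IL-4 gels (difference -3.95 ± 0.30, adjusted p = 6.8e-05). Atp6v0d2, a proton pump subunit, was at 5.77 and 6.92 TPM on untreated plates and 47.2 to 78.4 TPM in untreated gels, but at 317 and 321 TPM on IL-4 plates and 323 to 464 TPM in IL-4 gels (difference -2.80 ± 0.11). Arg1 was at 1.76 and 7.09 TPM on untreated plates and 37.6 to 46.3 TPM in untreated gels, and its gel effect was larger without IL-4 (3.18 ± 0.31) than with it (difference -1.96 ± 0.44, adjusted p = 0.020), a call that was lost without the first or the second IL-4 plate library (-1.95 and -1.97). Because the untreated plate libraries differed, that difference was -1.18 without the first of them and -2.74 without the second. In these genes the gap between gels and plates was narrower with IL-4.

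**Figure D4:**
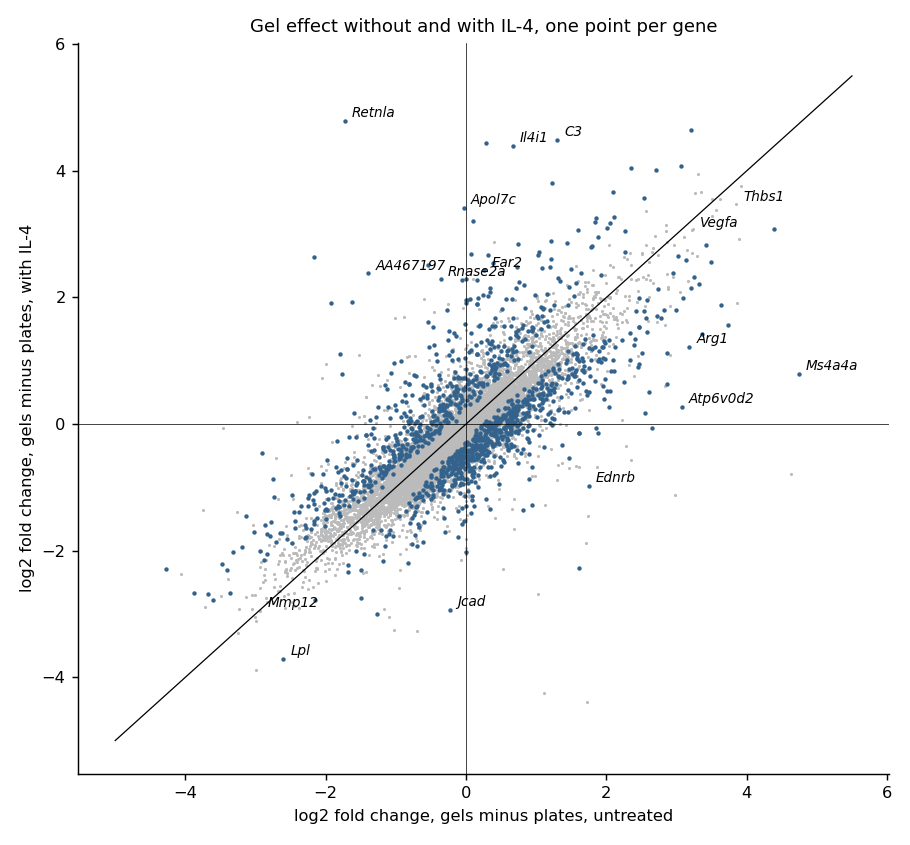
Log2 fold change of gels minus plates without IL-4 (x axis) and with IL-4 (y axis), one point per gene, with genes called for the difference in blue and the line of equal effect in black. Retnla (4.79 with IL-4) lies far above the line and Ms4a4a (0.79) far below it, while Mmp12, Lpl and Vegfa are low or high on both axes.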

How the data were processed

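RNA-seq was analyzed from 12 libraries, 2 for each of 6 conditions. The authors prepared stranded mRNA libraries, sequenced paired ends of 38 bases and estimated abundances with kallisto (0.46.1) on Ensembl transcripts of GRCm38 and deposited 1 table of TPM per gene and library. TPM hold no depth, so no reads per library, counting interval or count test can be given, and the precision rests on the replicates. How transcripts were summed into genes is not given in the sources used here. The methods of the study describe BMDM culture on TC plates with lysis for RNA, without saying which of these cultures were sequenced. Genes with like sequences receive divided reads, and their share of 31-base words found in the transcripts of other genes is given where it was over 30% for a gene that the naming rule selected.

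From 34456 lines, 129 repeated lines were collapsed, leaving 34327 genes, of which 11752 had a mean of at least 1 TPM over the 6 IL-4 libraries of gels and plates (11055 protein coding and 64 not in the annotation, GENCODE M21, on the same build). Conditions were compared on log2(TPM + 1) with limma 3.58.1 in R 4.3.3, with 1 mean per condition over all 12 libraries, variances moderated along the trend with the mean level, and p-values adjusted by Benjamini-Hochberg over all genes tested. The mean of the low- and high-collagen gels was set against plates with IL-4, and this difference against the same one without IL-4. The test was checked on simulated data. Plots were drawn with matplotlib 3.10.9 and tables made with numpy 2.4.6 and pandas 2.3.3 in python 3.11.15.

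Named protein-coding genes were the 12 largest rises and 12 largest falls among those with a mean of at least 5 TPM that were called on both scalings without overlap of libraries, the 4 members of each list with the largest called change, the 4 largest called differences in each direction between IL-4 and untreated, and 8 genes that the study names for IL-4 in gels. Further genes were named after their values were seen, as examples of their list. The members and lists were chosen with earlier results of these data known. The strict count, the ribosome biogenesis list and the TGATGNAA motif were added after the data had been seen. Alternatives were a pseudocount of 0.1, other filters, scalings and thresholds, no trend, a replicate block, fewer libraries in the fit, a correction for GC content and length and leaving out each library. Promoter windows were from RefSeq (GRCm38.p6, 32851 windows of 27025 genes, 11177 windows of tested genes), and motifs may overlap each other, as ACGTG does with TGACGT. The windows hold TGACGT in 11.7% and the AP-1 motif TGANTCA in 4.97% of cases among tested genes. Not all list members had a window. Among members lower in gels, windows covered 12 NRF2, 14 sterol and 17 integrated stress response genes. Some results are not reported here.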

Additional observations from a re-analysis of the deposited data

Results flagged for a closer look

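For 20 of the named genes the gel effect with IL-4 differed from that without by the test of the difference itself (limma, adjusted p under 0.05). The naming rule itself took the 4 largest called differences in each direction, so the place of those genes here was set in advance. Over all genes tested, 5.05% were called higher and 5.94% lower for the difference. Groups of 2 libraries were too small to check for a library far from its group. The values here are the gel effect with IL-4 minus the gel effect without, on the log2 scale.

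Among genes higher in gels with IL-4, the difference was 6.52 for Retnla, 3.78 for AA467197, 3.73 for Il4i1, 3.45 for Apol7c, 3.19 for C3, 2.65 for Rnase2a and 2.17 for Ear2. In untreated cells Retnla was at 0.969 and 6.52 TPM on plates and 0 to 0.39 TPM in gels, so the untreated plate libraries differed from each other, and the difference was 5.56 without the second of them and 7.49 without the first. C3 was at 20.1 and 22.3 TPM on untreated plates and 29.7 to 89.7 TPM in untreated gels. AA467197, a small protein-coding gene, turned direction between treatments, from 34.3 and 42.2 TPM on plates against 10.2 to 19 TPM in gels without IL-4 to 12.4 and 15.3 against 56.9 to 101 TPM with it. Smaller differences of the same sign were 1.70 for Gbp8, 1.57 for Egln3, 1.43 for Klk1b11, 1.32 for Tmem176b and 1.01 for Arl5c.

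The difference was negative, at -3.95 for Ms4a4a, -2.80 for Atp6v0d2, -2.72 for Ednrb, -2.70 for Jcad, -1.96 for Arg1, -1.73 for Serpinb9b, -1.10 for Lpl and -0.80 for Mrc1. Ednrb, the endothelin receptor B, was at 1.85 and 2.79 TPM on plates and 8.77 to 11.6 TPM in gels without IL-4, but at 32.1 and 33.4 TPM on plates and 14.8 to 18.5 TPM in gels with it, so it also turned direction. Jcad was below 1 TPM in all untreated libraries, and with IL-4 it was at 20.9 and 21.6 TPM on plates and 0.957 to 3.17 TPM in gels.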

How the results depend on the processing

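The count of 7905 genes called between gels and plates with IL-4 fell to 2384 at a change of at least 2-fold (784 higher, 1600 lower) and to 1697 (784 and 913) when this was asked on both scalings, a setting chosen after seeing the data. The 2487 genes higher in gels became 3823 after median-ratio rescaling and 3840 after correction for GC content and length. Low-collagen gels against plates gave 2372 genes at 2-fold and 1612 on both scalings, high-collagen gels 2456 and 1865, from 7333 and 7331. The difference between IL-4 and untreated, 1292 genes, became 3185 at an adjusted p under 0.2, 288 at 2-fold and 253 on both scalings. Leaving out 1 library gave 743 to 1336 genes, with 755 and 743 without the first and second untreated plate library and 843 and 787 without the first and second IL-4 plate library. For gels against plates with IL-4 the counts without 1 library were 6777 to 7611.

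No strong pairing by replicate number was seen, since the correlation of same-numbered deviations over 15 pairs of conditions was -0.140 to 0.114 and 1 pair was over 0.1. This cannot show that same-numbered libraries had separate sources. With a replicate block 7795 genes were called between gels and plates with IL-4, 7260 for low- and 7244 for high-collagen gels, and 1126 for the difference between IL-4 and untreated.

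Of 153 results of named genes, 142 kept direction and side of the threshold in each alternative run and 152 never turned direction. The exception was Ccl24, whose difference between IL-4 and untreated (-0.25, not called) was 0.255 after quantile normalization and 0.048 without the first untreated high-collagen library, with a range of -0.554 to 0.048 over libraries left out. The cause was not tested. The Arg1 difference of -1.96 lost its call with no filter and without either IL-4 plate library. Rnase2a and Ear2 kept theirs in direction but not in call at a pseudocount of 0.1. For gels against plates with IL-4, Ms4a4a and Atp6v0d2 lost their calls without the first plate library (0.77 and 0.27), Atp6v0d2 also with the 4 gel libraries as 1 group. Genes near 0 TPM, such as Gbp8 and Mgarp, are limited by the pseudocount, and depth is unknown.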

Other observations

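Further gene lists were compared between gels and plates with IL-4. Receptors for collagen and other matrix had 16 of 21 tested members lower in gels and 4 higher (median -0.61 on TPM, -0.33 after rescaling), with the scavenger receptor Msr1 at -1.77 and the heparan sulfate proteoglycan Sdc1 at 1.67. Genes of the ER unfolded protein response had 19 of 25 lower and 4 higher (median -0.57 and -0.28), with the chaperone Calr at -1.37 and the ER stress sensor Ern1 at 1.25. Growth factors had 10 of 19 lower and 5 higher, close to the shares of all genes (46.1% and 21.2%), with a median of -0.30 on TPM and -0.01 after rescaling. Gdf15 was at -2.01 and Hbegf, an EGF receptor ligand, at -1.44, while Bmp2 was at 1.61 and Tgfb3 at 1.32.

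Immediate early genes had 9 of 21 tested members higher and 7 lower, 3 and 2 by the strict count (median 0.06 on TPM, 0.34 after rescaling). Egr1, the early growth response factor, was at 2.31 and 1.30 TPM on plates, 28.4 and 37.9 TPM in low-collagen gels and 10 and 11 TPM in high-collagen gels (2.84 ± 0.19), while Jun was lower by 1.28. Genes of osteoclasts and macrophage fusion had 7 of 18 higher and 7 lower, 0 and 0 by the strict count (median -0.21 and 0.01). Iron and heme genes had 7 of 17 higher and 8 lower, 2 and 3 by the strict count (median -0.11 and 0.18). Matrix proteases and their inhibitors had 9 of 21 higher and 8 lower, 1 and 3 by the strict count (median 0.25 and 0.53). Among all genes 21.2% were higher and 46.1% lower, 6.67% and 7.77% by the strict count.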
